A study of Mus musculus with 8 samples.

Results

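The genes described here are 10 mouse genes of iron and copper handling, taken by name from the deposited RNA table, in which all 10 were found among 27277 rows. They are Hamp, Hfe, Tfr2, Tfrc, Fth1, Ftl1, Cp, Slc40a1, Slc11a2 and Aco1, and all of them passed the filter on low counts that left 15135 genes for testing. The study compared primary hepatocytes (liver parenchymal cells) from mice with both copies of Lcmr1 flanked by loxP sites (Lcmr1f/f, the controls) with cells from Lcmr1f/f mice that also carried albumin-cre (the knockouts). The albumin promoter drives Cre in hepatocytes, so other cell types that remain in such a preparation keep the gene. All cells were cultured for 24 h and all received 100 nM glucagon for 12 h, so no library lacks the hormone. RNA came from 3 libraries of each genotype, and chromatin immunoprecipitation (ChIP) from 1 library of each. Nothing in the labels ties the numbered libraries to separate animals, so a p-value here reflects just the scatter of these samples, which may be technical. The series asks whether Lcmr1, an older name of the Mediator subunit gene Med19, is needed for glucose production.

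Hepatocytes are the body's main iron store and the source of hepcidin, the peptide encoded by Hamp, which binds the iron exporter ferroportin (Slc40a1) and has it degraded. Hepcidin transcription rises with iron through bone morphogenetic protein (BMP) and SMAD signalling, helped by the surface proteins HFE, transferrin receptor 2 and hemojuvelin, and with inflammation through interleukin 6 and STAT3. Inside the cell, the iron regulatory proteins, of which Aco1 encodes one, bind iron-responsive elements in the mRNAs of the ferritin subunits, ferroportin, the transferrin receptor and the importer DMT1, and set their translation or stability.

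The RNA libraries held between 22191786 and 26595249 gene counts, and their TMM factors (edgeR's scaling for composition) lay between 0.773 and 0.837 in control and between 1.20 and 1.27 in knockout cells. Med19 was measured at 7.50, 10.8 and 13.4 CPM (counts scaled by the TMM-adjusted library size in the usual CPM unit) in control and at 2.91, 5.27 and 3.02 CPM in knockout cells (log2 fold change -1.50, SE 0.31, edgeR adjusted p = 0.012). Its whole-gene counts do not isolate the deleted part, and its ends overlap Zdhhc5 and Tmx2 on the other strand, which had 18006 and 8353 counts in all libraries together against 981 for Med19. Over all genes tested, 12.6% rose and 13.0% fell (edgeR adjusted p under 0.05). All 8 hepatocyte markers listed fell, with a summed level of 107654 to 111365 CPM in control and 26034 to 35304 CPM in knockout cells. Of 16 macrophage markers, 11 rose and none fell, with a summed level of 450 to 545 CPM in control and 888 to 1056 CPM in knockout cells. Of 10 endothelial and 10 stellate cell markers, 1 each rose, Lyve1 and Col1a2, a share near that of all genes tested. The sums of these lists were 304 to 371 and 131 to 262 CPM in control and 366 to 551 and 261 to 311 CPM in knockout cells. None of the 5 bile duct markers passed the test, and none of the markers on these lists was at 0 in all libraries. In bulk RNA, fewer cells of a type and less RNA per cell cannot be told apart, and the part of these marker shifts in the results below was not tested.

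The promoter windows of 4 genes are shown first, because the hepcidin genes moved in opposite directions and the ferritin genes carried ChIP regions at their starts. Each is the 250 bases before a RefSeq transcript start on build GRCm38.p6, written from 5′ to 3′ on the gene's own strand. Capitals mark GGCGCC, the core of a BMP response element, and TTCNNNGAA, the core of a STAT binding site.
Hamp, chr7:30944030-30944279, minus strand: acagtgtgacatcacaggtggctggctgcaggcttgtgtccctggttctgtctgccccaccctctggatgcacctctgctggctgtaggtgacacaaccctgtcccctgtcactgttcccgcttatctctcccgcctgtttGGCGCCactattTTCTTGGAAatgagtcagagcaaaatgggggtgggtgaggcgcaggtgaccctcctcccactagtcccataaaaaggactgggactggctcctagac
Hamp2, chr7:30924182-30924431, minus strand: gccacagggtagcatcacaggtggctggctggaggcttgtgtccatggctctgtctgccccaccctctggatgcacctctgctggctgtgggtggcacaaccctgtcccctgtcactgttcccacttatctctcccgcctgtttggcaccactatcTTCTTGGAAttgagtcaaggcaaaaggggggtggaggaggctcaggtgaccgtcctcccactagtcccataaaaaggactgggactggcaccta
Ftl1, chr7:45459887-45460136, minus strand: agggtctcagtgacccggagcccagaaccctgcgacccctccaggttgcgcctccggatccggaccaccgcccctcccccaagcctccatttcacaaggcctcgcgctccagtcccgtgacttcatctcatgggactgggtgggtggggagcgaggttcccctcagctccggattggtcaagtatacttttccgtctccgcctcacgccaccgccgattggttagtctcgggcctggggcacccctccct
Fth1, chr19:9982396-9982645, plus strand: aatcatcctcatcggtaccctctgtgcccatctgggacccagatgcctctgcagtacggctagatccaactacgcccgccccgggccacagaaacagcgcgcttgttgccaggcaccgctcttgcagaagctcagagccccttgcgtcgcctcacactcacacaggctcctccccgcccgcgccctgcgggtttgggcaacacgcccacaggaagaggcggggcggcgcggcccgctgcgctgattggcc
The Hamp and Hamp2 windows shared 227 identical bases over 253 aligned columns (89.7%). Hamp held GGCGCC with its first base 109 bases before the start and TTCNNNGAA at 97 bases before it. Hamp2 held TTCNNNGAA at 94 bases before its start and no GGCGCC in this window. The Hamp2 window lies inside the gene as placed for the RNA counts (30922372 to 30924681), downstream of the start used there. Aligned with the GGCGCC of Hamp, and counting from its first base, the Hamp2 window carries the substitution G4A. Of 32536 promoter windows of this length, 9.65% held GGCGCC and 7.04% held TTCNNNGAA on either strand. CACGTG and TATAAA were searched in the same way and were found in 6.04% and 12.3% of windows, and in none of the 4 windows shown. A further Fth1 window, chr19:9980350-9980599, is not shown and held TATAAA. The motifs do not overlap one another here, and a match describes letters only. Windows were matched for 8 of the 10 genes and credited to RefSeq, and Slc40a1 and Slc11a2 had no entry.

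Of the 10 genes, 5 fell (Hamp, Cp, Ftl1, Tfr2 and Slc11a2), 1 rose (Hfe) and 4 did not pass the test (edgeR quasi-likelihood test, Benjamini-Hochberg adjusted p under 0.05). Over all genes tested, 13.0% fell and 12.6% rose, 25.5% in either direction. The median log2 fold change of the 10 genes was -0.59, and that of all genes tested was 0.01. The libraries of the 2 genotypes did not overlap in CPM for 6 of the 10 genes, the same 6 that were called, against 45.9% of all genes tested. Which genes were called depended on the scaling, although the 6 called genes kept their direction in the fit that follows. With library size alone in place of the TMM factors, the median of all genes moved up by 0.588 and edgeR called 55.0% of genes, 50.9% higher and 4.08% lower. Of the 10 genes, Hfe and Fth1 were then called higher and Cp lower.

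**Figure D1:**
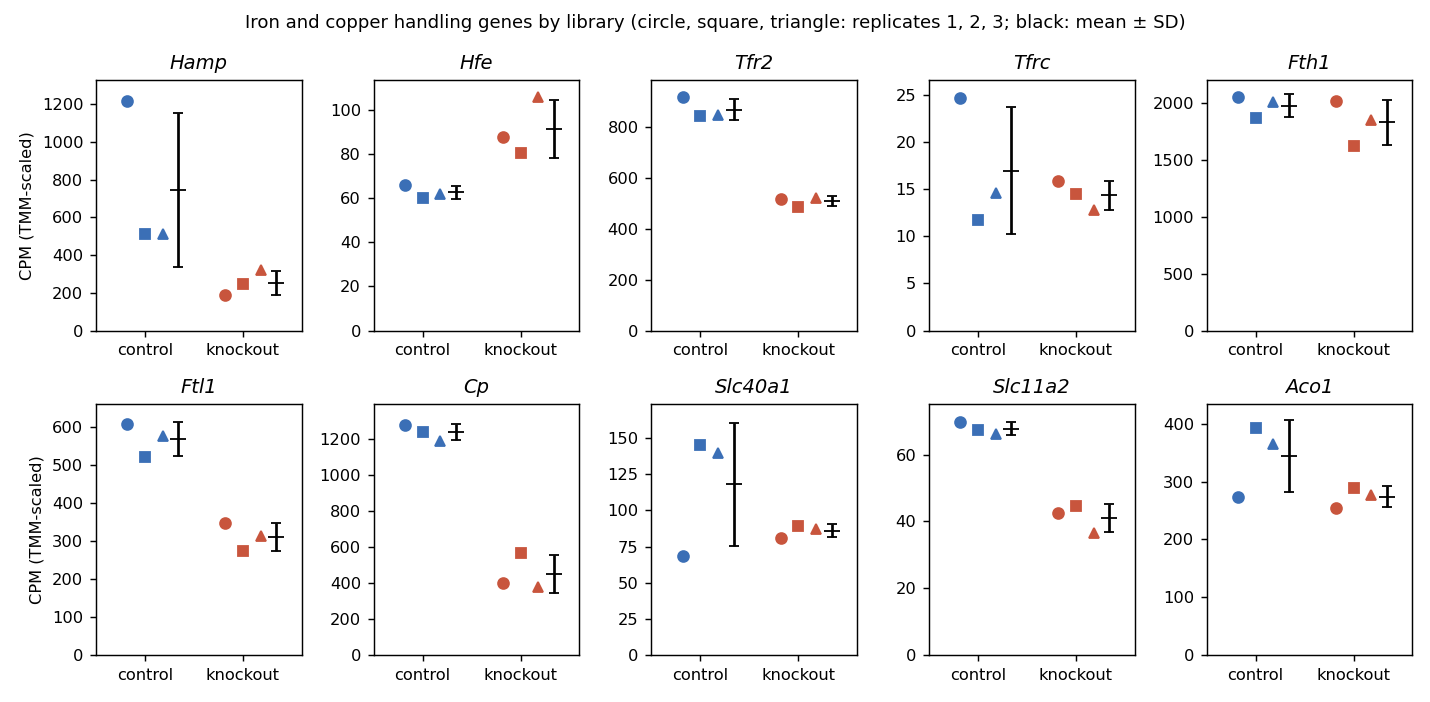
CPM of each gene (linear axis from 0) in the 3 control libraries (blue) and the 3 knockout libraries (red), with circles, squares and triangles for replicates 1, 2 and 3 and the mean ± SD in black. The groups are apart for Hamp, Hfe, Tfr2, Ftl1, Cp and Slc11a2, and control replicate 1 lies away from the other controls for Hamp, Tfrc, Slc40a1 and Aco1.

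Hamp (ENSMUSG00000050440, chromosome 7, 30942368 to 30944032, mm10, minus strand) encodes hepcidin, the hormone that lowers iron export into blood. It stood at 1216, 510 and 510 CPM in control replicates 1, 2 and 3 and at 190, 245 and 320 CPM in knockout cells. Control replicate 1 was far above the other controls, and all controls were above all knockouts. The mean fell from 745 ± 408 to 252 ± 65.2 CPM (SD, n = 3), a log2 fold change of -1.57 (SE 0.39, edgeR adjusted p = 0.0296). Without control replicate 1 the log2 fold change was -1.02 (edgeR adjusted p = 0.0074), and without knockout replicates 1, 2 and 3 the call ended, with edgeR adjusted p of 0.0934, 0.0921 and 0.0540. The call also ended with library size alone (-0.95, adjusted p = 0.0612) and without the count filter (0.140), and adjusted p ran from 1.44e-04 to 0.140 over all alternatives. Per count of Alb, a hepatocyte marker that fell, Hamp had 0.00996 ± 0.00554 counts in control and 0.0162 ± 0.00627 in knockout cells (n = 3, SD), and these values overlapped (2-sided exact permutation p = 0.3, also 0.3 after adjustment over the 9 ratios described below with Tfr2). Such a ratio depends on the marker chosen. Log2 fold changes of the 8 hepatocyte markers ran from -2.79 (Cyp2e1) to -0.75 (Apob), and Alb had -2.21.

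Control replicate 1 also stood apart in genes known as targets of interleukin 6 signalling, which were chosen for mention after their values were seen. Haptoglobin, Hp, stood at 8889 CPM there and at 2972 and 3090 CPM in the other controls. Lipocalin 2, Lcn2, which binds bacterial iron carriers, stood at 61.9 CPM there and at 1.81 and 1.89 CPM in the other controls. Fgl1, a liver-secreted protein, stood at 847 CPM there and at 162 and 146 CPM in the other controls. In the knockouts, Lcn2 lay between 6.48 and 12.2 CPM, above control replicates 2 and 3 and below control replicate 1. The part of this library's state in the value for Hamp was not tested beyond the fit without it.

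Hamp2 (ENSMUSG00000056978, chromosome 7, 30922372 to 30924681, mm10, minus strand), the neighbouring and closely similar hepcidin gene of the mouse, went the other way. It had 5, 1 and 2 counts in control and 223, 137 and 275 counts in knockout cells. The controls were close to silent, and every knockout library held far more counts than all controls together. Summed over libraries, 8 control counts and 635 knockout counts gave a ratio of 50.4 per scaled library (95% exact interval 25.4 to 117, counting error only), and the gene was called higher (log2 fold change 5.60, SE 0.50, edgeR adjusted p = 5.35e-04). Hamp2 took 0.0168 ± 0.0065% of the joint Hamp and Hamp2 counts in control and 2.67 ± 0.952% in knockout cells (SD, n = 3). Hamp thus still supplied nearly all hepcidin counts in every library. Reads shared by these genes could be split by the counting, and how many reads they share is unknown here. Hamp2 held no ChIP region in either list.

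By the root mean square difference of centred log2 CPM (pseudocount 0.5) over the 6 libraries, the genes most like Hamp among all tested were the lincRNA 9430037G07Rik (0.164), the transferrin gene Trf (0.186) and the processed pseudogene AC139294.1 (0.196). Trf, which encodes the plasma iron carrier, stood at 46.0, 19.3 and 22.2 CPM in control and at 7.52, 7.66 and 9.32 CPM in knockout cells. Like Hamp, it was highest in control replicate 1 and higher in every control than in any knockout.

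**Figure D2:**
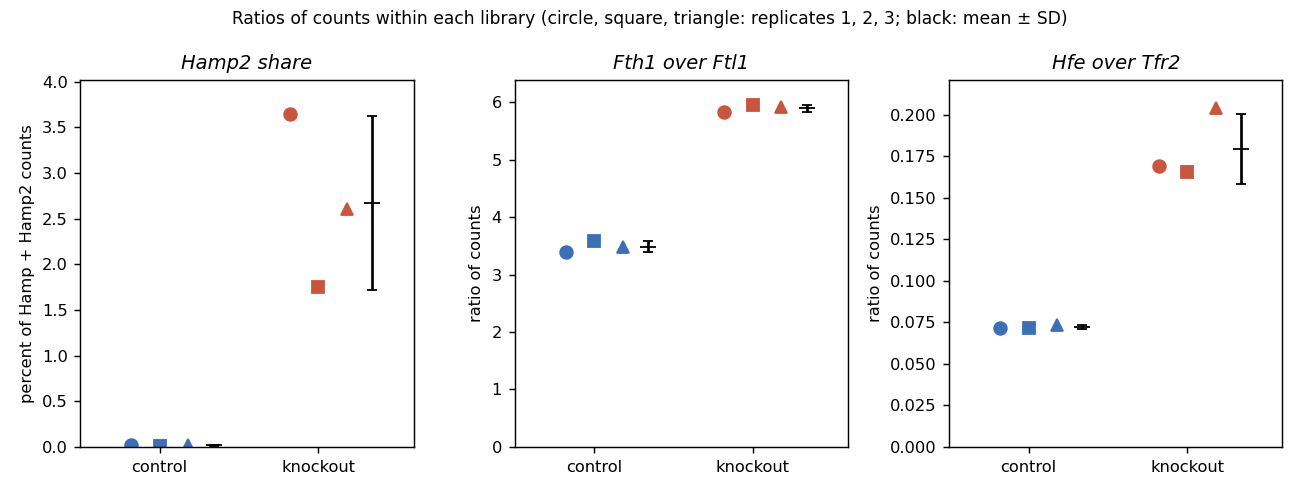
Hamp2 as a percent of Hamp and Hamp2 counts, and the count ratios Fth1 over Ftl1 and Hfe over Tfr2, in each library (linear axes from 0, mean ± SD in black). All 3 quantities were higher in each knockout library than in any control, with Fth1 over Ftl1 near 3.49 in control and 5.90 in knockout cells.

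The sensors of iron on the hepatocyte surface split. Hfe (ENSMUSG00000006611, chromosome 13, 23702034 to 23710854, minus strand) encodes an MHC class I-like protein that binds transferrin receptors, and its loss causes iron overload. It stood at 65.8, 60.0 and 61.8 CPM in control and at 87.5, 80.6 and 106 CPM in knockout cells. Every knockout library was above every control. The log2 fold change stood at 0.55 (SE 0.13, edgeR adjusted p = 0.0184). It was 1.14 under library size alone (edgeR adjusted p = 7.56e-04), and the call ended without control replicates 2 and 3 and knockout replicates 1 and 3 (edgeR adjusted p of 0.0725, 0.0678, 0.0561 and 0.0521). Hfe is also expressed by macrophages, whose markers rose. Per count of the Kupffer cell gene Clec4f, Hfe had 0.860 ± 0.150 counts in control and 0.639 ± 0.189 in knockout cells (SD, n = 3), and these values overlapped. The 11 macrophage markers called higher had larger log2 fold changes than Hfe. Of those not called, Marco (0.85) and Spic (0.83) also had larger ones. Timd4 (0.26), Lyz2 (0.24) and Ptprc (0.46), also not called, had smaller ones, so such a ratio depends on the marker chosen.

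Tfr2 (ENSMUSG00000029716, chromosome 5, 137569840 to 137587481, plus strand) encodes transferrin receptor 2, which senses iron-loaded transferrin. It stood at 915, 841 and 844 CPM in control and at 517, 486 and 519 CPM in knockout cells. The groups were well apart and the spread within each was small. That is a log2 fold change of -0.77 (SE 0.10, edgeR adjusted p = 0.00238), and -0.18 with library size alone (edgeR adjusted p = 0.182). The ratio of Hfe to Tfr2 counts within a library does not depend on the scaling. It was 0.0722 ± 0.00095 in control and 0.180 ± 0.0211 in knockout cells (SD, n = 3), 2.49 times as high. A 2-sided exact permutation test gave p = 0.1, the smallest that 3 libraries against 3 allow, and 0.15 after adjustment over the 9 ratios computed, of which 6 reached 0.1. The ratios were chosen after the values were seen.

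Of the genes of iron uptake, Slc11a2 fell and Tfrc did not pass the test. Slc11a2 (ENSMUSG00000023030, chromosome 15, 100387898 to 100425072, minus strand) encodes DMT1, which carries ferrous iron across membranes. It stood at 69.9, 67.4 and 66.2 CPM in control and at 42.5, 44.5 and 36.5 CPM in knockout cells, with no overlap. The fitted log2 change was -0.72 (SE 0.11, edgeR adjusted p = 0.00397), and -0.13 with library size alone (edgeR adjusted p = 0.301). Tfrc (ENSMUSG00000022797, chromosome 16, 32608920 to 32632794, plus strand) encodes the transferrin receptor that brings iron into most cells. It stood at 24.6, 11.7 and 14.5 CPM in control and at 15.8, 14.4 and 12.7 CPM in knockout cells. Control replicate 1 was the highest library and the groups overlapped. On the log2 scale the difference was -0.24 (SE 0.27, edgeR adjusted p = 0.533), which turned to 0.12 without control replicate 1 (0.599) and to 0.36 with library size alone (0.229).

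The ferritin subunits, which form the shell that stores iron, differed from each other. Ftl1 (ENSMUSG00000050708, chromosome 7, 45457944 to 45459884, minus strand) encodes the light chain, which promotes the building of the iron core. It stood at 607, 520 and 576 CPM in control and at 346, 272 and 312 CPM in knockout cells. All knockouts were below all controls. Its log2 fold change came to -0.87 (SE 0.13, edgeR adjusted p = 0.0035), and -0.28 with library size alone (edgeR adjusted p = 0.102). Fth1 (ENSMUSG00000024661, chromosome 19, 9982703 to 9985092, plus strand) encodes the heavy chain, which oxidises ferrous iron. It stood at 2056, 1866 and 2010 CPM in control and at 2020, 1622 and 1848 CPM in knockout cells. These values overlapped. The log2 fold change stood at -0.11 (SE 0.12, edgeR adjusted p = 0.525), and it was 0.48 and called higher with library size alone (edgeR adjusted p = 0.0137).

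The ratio of Fth1 to Ftl1 counts was 3.39, 3.59 and 3.49 in control and 5.83, 5.95 and 5.92 in knockout cells. Each group was tight and the groups were far apart, whatever the scaling. The ratio was 1.69 times as high in the knockouts (2-sided exact permutation p = 0.1, adjusted over the 9 ratios 0.15), and between 1.67 and 1.72 times as high with any 1 library left out. The ratio describes unequal change of the subunit mRNAs and is not a ratio of their levels per length. Light chain copies followed Ftl1. Ftl1-ps1 fell from 50.0 ± 7.52 to 28.8 ± 3.65 CPM and Ftl2-ps from 13.5 ± 2.81 to 8.54 ± 0.635 CPM (n = 3, SD, edgeR adjusted p = 0.00854 and 0.0352), and reads of Ftl1 could have been split with them. The call of Ftl2-ps ended without control replicate 3 or any knockout library (edgeR adjusted p 0.0688 to 0.108), and library size alone ended both. With all copies summed in, the ratio was 1.68 times as high in knockout cells. A further 416 bases of Ftl1 overlap Gm10252 on the other strand, which had 137 counts in all libraries together.

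Of the genes of iron export, Cp fell and Slc40a1 did not pass the test with all libraries. Cp (ENSMUSG00000003617, chromosome 3, 19957054 to 20009145, plus strand) encodes ceruloplasmin, the copper-carrying plasma protein that oxidises iron as it leaves cells. It stood at 1277, 1240 and 1189 CPM in control and at 401, 568 and 374 CPM in knockout cells. The controls were close together and far above every knockout. That is a log2 fold change of -1.46 (SE 0.17, edgeR adjusted p = 0.00137), and -0.88 with library size alone (edgeR adjusted p = 0.0029). The call held in all alternatives run, with adjusted p from 4.59e-12 to 0.0131. Cp had 0.0165 ± 0.000747 counts per count of albumin, Alb, in control and 0.0277 ± 0.000995 in knockout cells (SD, n = 3), so it fell by less than Alb did. Such a ratio depends on the marker chosen. Alb had a log2 fold change of -2.21 and Apob, another hepatocyte marker, -0.75. The median of the 8 hepatocyte markers was -1.47, close to the value of Cp. The last 13201 bases of Cp overlap Hps3 on the other strand, which had 795 counts in all libraries together against 116621 for Cp.

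Slc40a1 (ENSMUSG00000025993, chromosome 1, 45908068 to 45926523, minus strand) encodes ferroportin, which hepatocytes and, more strongly, macrophages use to export iron. It stood at 68.7, 146 and 140 CPM in control and at 80.9, 89.5 and 87.5 CPM in knockout cells. Control replicate 1 was below every knockout, and the other controls were above every knockout. The fitted log2 change was -0.46 (SE 0.27, edgeR adjusted p = 0.244), and 0.12 with library size alone (0.750). Without control replicate 1 it was -0.73 and passed (edgeR adjusted p = 8.11e-04). Per count of Clec4f, Slc40a1 had 1.57 ± 0.438 counts in control and 0.592 ± 0.0926 in knockout cells (SD, n = 3), with no overlap (2-sided exact permutation p = 0.1, adjusted 0.15). This separation depends on the marker chosen. Per count of Timd4 or Lyz2, macrophage markers that were not called, the groups overlapped, and per count of Ptprc, also not called, they did not.

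Aco1 (ENSMUSG00000028405, chromosome 4, 40143081 to 40198338, plus strand) encodes cytosolic aconitase, which becomes iron regulatory protein 1 when it loses its iron-sulfur cluster. It stood at 274, 392 and 366 CPM in control and at 254, 290 and 278 CPM in knockout cells. Control replicate 1 lay within the range of the knockouts, and the other controls lay above that range. On the log2 scale the difference was -0.33 (SE 0.15, edgeR adjusted p = 0.150), and 0.25 with library size alone (0.243). Without control replicate 1 it was -0.47 and passed (edgeR adjusted p = 0.00878). In that fit 7 of the 10 genes were lower and 1 higher, beside 16.0% and 15.3% of all genes tested (31.3% in either direction).

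**Figure D3:**
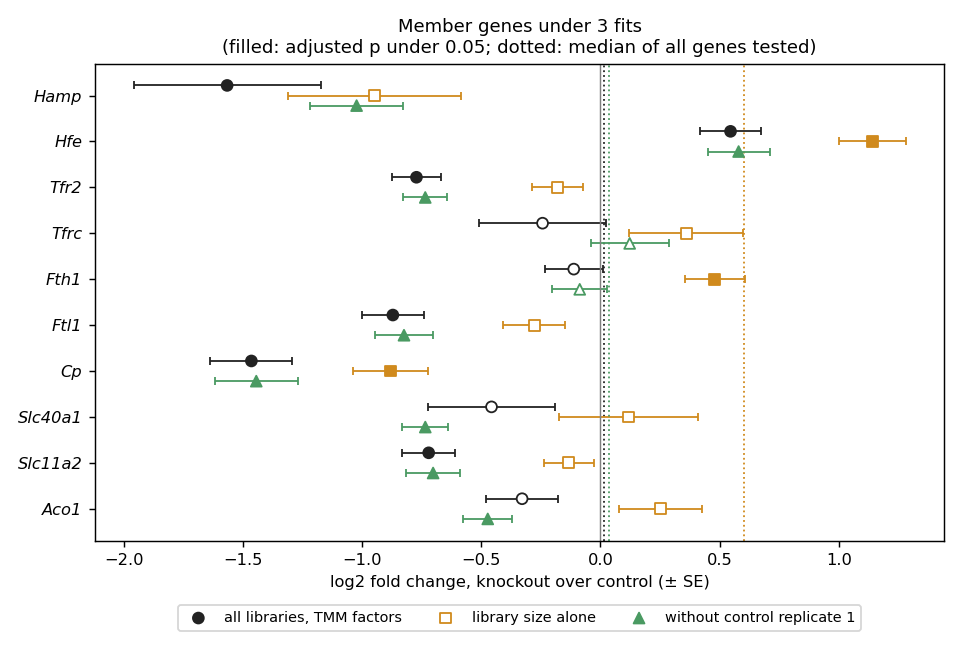
Log2 fold change ± SE of each gene (knockout over control) with all libraries and TMM factors (black circles), with library size alone (orange squares) and without control replicate 1 (green triangles), filled where the adjusted p is under 0.05. Dotted lines mark the median of all genes in each fit, and Cp is below 0 and Hfe above 0 and filled in all 3.

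The authors' deposited table marks Hamp and Cp as significant among the 10 genes, with log2 fold changes of -1.58 and -1.48, and also Hamp2 with 5.64. In the authors' deposited table Tfr2, Ftl1, Slc11a2 and Hfe have adjusted p of 6.66e-09, 3.79e-07, 2.07e-05 and 0.00758 and are not marked. Their log2 fold changes in the authors' deposited table are -0.78, -0.88, -0.73 and 0.53.

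Of 23 tested genes on a list of 24 that act on hepcidin transcription, 3 rose and 3 fell, shares near the 12.6% and 13.0% of all genes tested, with a median log2 fold change of 0.08. Hfe2, which encodes hemojuvelin, the BMP coreceptor, stood at 106, 93.4 and 92.9 CPM in control and at 306, 263 and 371 CPM in knockout cells (log2 fold change 1.69, SE 0.15, edgeR adjusted p = 5.35e-04). All knockouts were above all controls. Id1 and Smad7, known as genes induced by BMP signalling, rose by 1.82 and 0.77 on the log2 scale (edgeR adjusted p = 0.0274 and 0.0363). The Id1 libraries were uneven, with 26.9, 33.0 and 8.98 CPM in knockout cells and 5.92 to 7.10 CPM in the controls. Atoh8, another gene known to respond to BMP, fell by 0.61 (edgeR adjusted p = 0.00435). The interleukin 6 receptor gene Il6ra fell from 84.4 ± 16.2 to 38.3 ± 14.4 CPM (n = 3, SD, edgeR adjusted p = 0.0344), and the protease gene Furin, whose product processes hepcidin, fell by 0.61 (edgeR adjusted p = 0.00585). The most abundant member was Tmprss6, the protease that cleaves hemojuvelin, with 856 ± 124 and 707 ± 10.8 CPM (n = 3, SD, edgeR adjusted p = 0.160). With library size alone, 14 members of this list were called higher and 0 lower, beside 50.9% and 4.08% of all genes tested, and the falls of Atoh8, Furin and Il6ra were no longer called. The call of Hfe2 held in every alternative. That of Id1 ended without any library but knockout replicate 3 (edgeR adjusted p 0.0731 to 0.106) and without the count filter (0.123), that of Smad7 without control replicate 3 or any knockout library (0.0521 to 0.118), and that of Il6ra without control replicates 2 and 3 and knockout replicate 2 (0.0688 to 0.0925) and without the count filter (0.136). Tmprss6 passed without control replicate 1 (-0.40, edgeR adjusted p = 0.0117).

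Of 21 tested genes of other steps of iron and heme uptake and transport, 7 fell and 1 rose, beside 13.0% and 12.6% of all genes tested, with a median of -0.49. With library size alone 4 were lower and 6 higher, beside 4.08% and 50.9% of all genes tested. Hp, which binds free hemoglobin, fell from 4984 ± 3383 to 574 ± 165 CPM (n = 3, SD, log2 fold change -3.12, edgeR adjusted p = 0.00795). Trf fell by 1.84, the metalloreductase Steap2 by 2.97 and its relative Steap3 by 1.20 (edgeR adjusted p = 0.00862, 0.00777 and 0.0200). The gene that rose was Cd163 (1.20, edgeR adjusted p = 0.0159), the macrophage receptor for hemoglobin bound to haptoglobin, which is also on the macrophage marker list. Hemopexin, Hpx, had 4440 ± 1418 and 3474 ± 192 CPM (n = 3, SD, edgeR adjusted p = 0.247). The calls of Hp, Trf and Steap2 held in every alternative, but without control replicate 1 the log2 fold change of Hp was -2.40. That of Steap3 ended without control replicates 2 and 3 and knockout replicates 1 and 2 (edgeR adjusted p 0.0547 to 0.0631), and that of Cd163 without control replicates 2 and 3 and knockout replicate 1 (0.0561 to 0.0609).

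In the iron regulatory protein list of 5, Ireb2, which encodes iron regulatory protein 2, fell by 0.38 (edgeR adjusted p = 0.0417), a call that turned to 0.21 with library size alone and ended with upper-quartile factors (0.102), without the count filter (0.0804) and without each library but control replicate 1 (0.0525 to 0.133). Alas2, the heme synthesis gene of red cell precursors, fell from 130 ± 39.4 to 39.5 ± 14.5 CPM (n = 3, SD, edgeR adjusted p = 0.0134). Alas2 lies wholly within Apex2 on the other strand, which had 1789 counts in all libraries together against 11552 for Alas2. The other erythroid markers tested, the globin genes and Klf1, did not pass. The call of Alas2 ended without the count filter (edgeR adjusted p = 0.0782).

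Of 25 tested genes of mitochondrial iron and iron-sulfur cluster assembly, 2 rose and 3 fell, at or below the 12.6% and 13.0% of all genes tested, with a median of -0.16. With library size alone 16 were higher and 1 lower, beside 50.9% and 4.08% of all genes tested. Ferredoxin reductase, Fdxr, stood at 47.8, 39.0 and 38.8 CPM in control and at 171, 122 and 159 CPM in knockout cells (log2 fold change 1.85, SE 0.16, edgeR adjusted p = 5.07e-04). Its partner ferredoxin 1, Fdx1, fell by 0.47 (edgeR adjusted p = 0.0122). Nubp1 fell by 0.72 and the sulfur donor Nfs1 rose by 0.38 (edgeR adjusted p = 0.0203 and 0.0415), and part of each overlaps a gene on the other strand. The call of Fdxr held in every alternative, while Fdx1 turned to 0.12 with library size alone and missed the threshold without knockout replicate 1 (0.0542). That of Nfs1 ended without any 1 library (edgeR adjusted p 0.0516 to 0.136) and without the count filter (0.0516), and that of Nubp1 without control replicate 2 and knockout replicates 1 and 2 (0.0628 to 0.0757). Hspa9, the most abundant member, had 512 ± 8.44 and 519 ± 31.5 CPM (n = 3, SD, edgeR adjusted p = 0.900).

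Among 14 tested copper genes other than Cp, 1 rose and 3 fell, beside 12.6% and 13.0% of all genes tested, with a median of -0.26. With library size alone 4 were higher and 0 lower, beside 50.9% and 4.08% of all genes tested. Atp7b, the pump that loads copper onto ceruloplasmin and into bile, stood at 36.5, 42.0 and 37.6 CPM in control and at 62.6, 65.0 and 74.9 CPM in knockout cells (log2 fold change 0.80, SE 0.12, edgeR adjusted p = 0.00317). It was higher in every knockout than in any control, while Cp was lower in every knockout. The copper chaperone Cox19 fell by 1.01, the ubiquitin ligase gene Xiap by 0.57 and superoxide dismutase, Sod1, the most abundant member, by 0.39 (edgeR adjusted p = 0.00646, 0.0219 and 0.0357), and with library size alone Xiap and Sod1 turned to 0.008 and 0.19. The call of Atp7b held in every alternative, and that of Cox19 in all but library size alone. Without any library but control replicate 1 the call of Sod1 ended (edgeR adjusted p 0.0743 to 0.132), as it did with upper-quartile factors (0.0679), and that of Xiap ended without control replicates 2 and 3 and knockout replicates 1 and 3 (0.0638 to 0.0748).

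**Figure D4:**
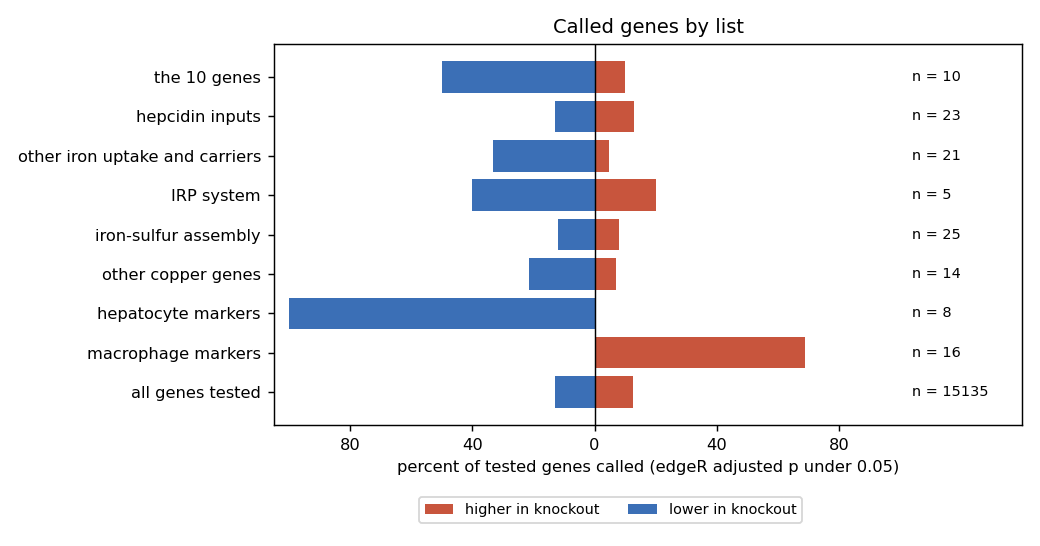
Percent of tested genes called higher (red, to the right) or lower (blue, to the left) in each list, with the number tested at the right. The 10 genes show 50% lower and 10% higher, beside 13.0% and 12.6% of all genes tested, and the hepatocyte and macrophage markers lie at opposite ends.

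The ChIP lists hold regions called in 1 library each, so no test is possible. The sample titles name the target as RNA poll III and the series text names Lcmr1, so the labels leave the protein that was pulled down unsettled. The control list holds 16995 distinct regions and the knockout list 1309, and a gene missing from the shorter list is not thereby shown to have lost signal. Folds are the authors' values over the local background of each list. In the control list, 9 of the 10 genes held a region between start and end (all but Hfe), beside 39.2% of genes tested for RNA. In the knockout list, Hamp and Ftl1 did, beside 3.90% of genes tested. Of all genes in the RNA table, 24.2% and 2.37% held a region of the control and knockout lists. Regions over the gene in both lists were held by 3.73% of genes tested. A summit within 1 kb of the gene start was present for 7 of the 10 genes in the control list and for 2, Hamp and Ftl1, in the knockout list, beside 31.4% and 1.91% of genes tested.

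Ftl1 and Hamp were covered from start to end in the control list. A control region of 3575 bases with 6 summits spanned Ftl1 (chr7:45456554-45460128), with a top fold of 24.9 and a -log10 q of 54.5. That top summit lay 2406 bases from the start, past the end of the gene, which is 1941 bases long. The knockout list held an overlapping region of 3064 bases with 6 summits (chr7:45457017-45460080). Its top fold was 9.35, at 592 bases from the start, so the top folds of the lists belong to different positions. Both regions cover the promoter window of Ftl1 printed above at least in part. Hamp lay wholly within a control region of 3143 bases with 5 summits (chr7:30941054-30944196), with a top fold of 11.9, which reaches 164 bases upstream of the start. In the knockout list, 2 regions of 339 and 205 bases covered 32.7% of Hamp, and neither reached the promoter window. Their top folds were 5.36 and 4.65, at 1029 and 456 bases from the start. The control top fold lay at 1464 bases. Fth1 held a control region at its start (fold 9.93, 646 bases) and another over its end (fold 6.30), and none in the knockout list.

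Longer genes differed in where the control regions lay. Cp held 22 control regions over 34.1% of its 52092 bases, none of them over the start. The first began 918 bases downstream of the start and the last ended at 19994276, before the stretch shared with Hps3. Its highest fold was 10.1, at 8233 bases from the start. Slc40a1 held 6 regions over 21.5% of the gene, with the highest fold (10.1) at 955 bases from the start. Tfr2 held 4 regions, the strongest (fold 7.90) at 10576 bases, and Aco1 held 3, the strongest (fold 8.90) at 368 bases. Tfrc held 1 region, at its start (fold 6.17). Slc11a2 held 2 weak regions, with folds of 3.95 and 3.38. Hfe held none, although a region over the histone gene Hist1h4c lies within 5 kb of its end in both lists. The genes called lower (Hamp, Cp, Ftl1, Tfr2 and Slc11a2) and those that did not pass (Tfrc, Fth1, Slc40a1 and Aco1) all held control regions. Hfe, the only gene that rose, held none, while 39.2% of genes tested for RNA held one. A link between regions and the direction of change was not tested.

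**Figure D5:**
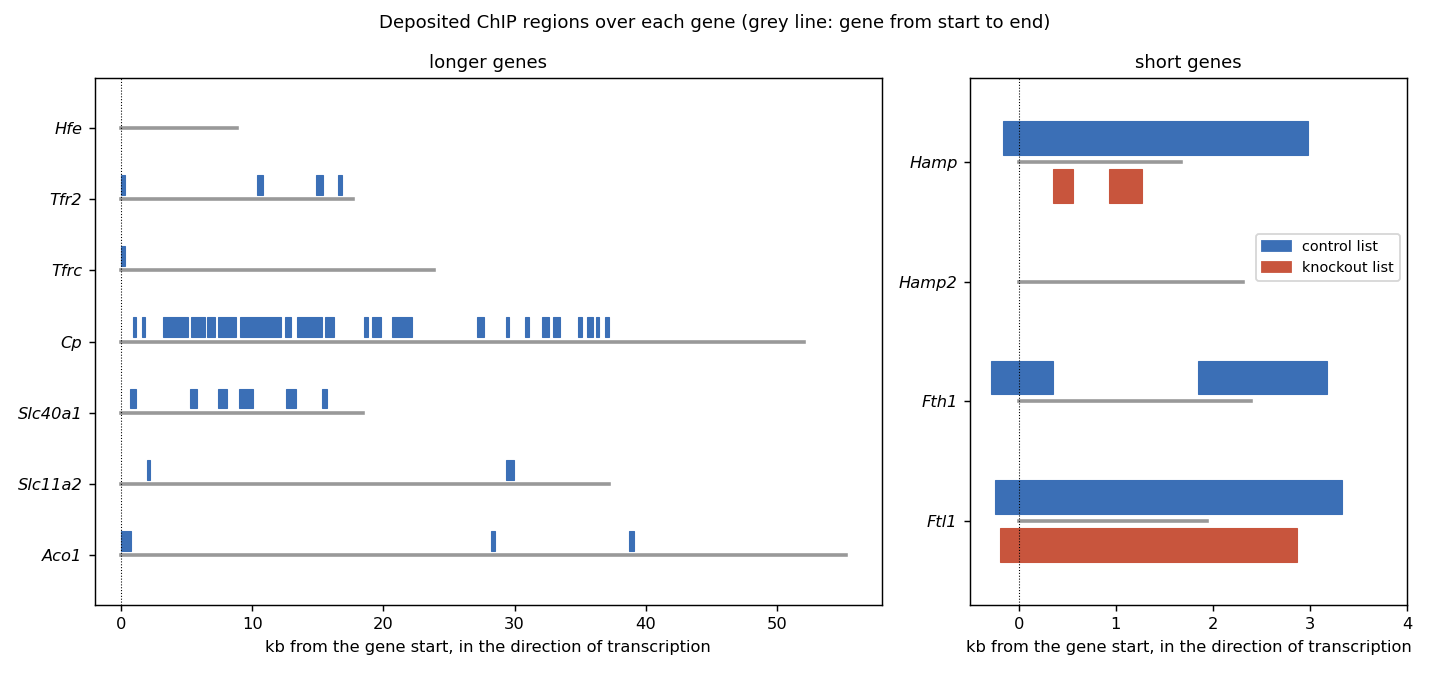
Regions of the control list (blue, above each gene line) and the knockout list (red, below it) over each gene and Hamp2, plotted as kb from the gene start in the direction of transcription. Ftl1 and Hamp hold regions in both lists, Hfe and Hamp2 in neither, and the 22 regions of Cp end before the last part of the gene.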

How the data were processed

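Gene expression was deposited as raw counts (whole numbers) for Ensembl genes placed on mm10. HISAT2 2.1.0, Bowtie2 2.2.3 and HTSeq 0.6.0 are named in the submitters' processing notes, without their roles, and the strand setting of the counting is not stated there. The same deposited table carries the authors' fold change (ratio), log2 fold change, p-value and adjusted p-value, and a mean score per gene that was not used. The ChIP lists, deposited in narrowPeak layout with 1 list per library, give the authors' score, fold over background (ratio), -log10 p and -log10 q. For them the submitters' processing notes list MACS2, BWA, deepTools, SAMtools and DESeq2 without versions, and no input library is among the files used.

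After filterByExpr (at least 10 counts, 15 in total) and TMM scaling, edgeR 4.0.16 (R 4.3.3) compared the genotypes by its robust quasi-likelihood test with no other term. P-values were adjusted by Benjamini-Hochberg over 15135 genes, and 0.05 was the threshold. The SE is the log2 fold change over the square root of the test's F statistic. The script was tested on simulated data. No pair of replicates agreed within sampling noise (chi-square over its degrees of freedom 6.84 to 135). Regions were assigned to a gene with at least 1 base of overlap, and rows with the same start and end were counted as 1 region.

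The 10 genes, the 5 companion lists and the marker lists were chosen with earlier results of these data known. The genes named are the 10, copies of them, and from each companion list at most the 4 largest called changes in each direction and the most abundant member, and for likeness the 3 genes nearest to Hamp. Alternatives were DESeq2 1.42.0, other scalings, no count filter, a replicate block, each library left out, and for the regions a -log10 q of at least 5, genes extended by 5 kb and summits within 1 kb of the start. Of the list entries, Hephl1, Ftmt, Sco2, Ftl2, Fth-ps1 and Fth-ps3 were not analysed here. Fth-ps2 and Ftl1-ps2 had too few counts to be tested. Values of some list members are not reported here, although the list counts include them. No deposited per-sample column was left unused.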

Additional observations from a re-analysis of the deposited data

How the results depend on the processing

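Cp, Tfr2, Ftl1, Slc11a2 and Hamp2 kept their direction and calls whichever library was dropped, with DESeq2, with other factors, without the filter and with the block, and library size alone ended the calls of Tfr2, Ftl1 and Slc11a2. Under library size alone edgeR called 8328 genes, 7711 higher and 617 lower, in place of 3865, 1905 and 1960. There Hamp (-0.95), Tfr2 (-0.18), Ftl1 (-0.28) and Slc11a2 (-0.13) lost their calls, and Tfrc (0.36), Fth1 (0.48), Slc40a1 (0.12), Aco1 (0.25), Tmprss6 (0.31), Hpx (0.25), Ireb2 (0.21), Fdx1 (0.12), Xiap (0.008) and Sod1 (0.19) changed sign. With all factors at 1, a shift of the median is built into that alternative, and the cause of each gene's change was not tested. The 10 genes then had 2 higher and 1 lower, beside 50.9% and 4.08% of all genes tested. The called higher and lower genes were then 14 and 0 of the hepcidin list, 6 and 4 of iron uptake, 3 and 1 of the iron regulatory list, 16 and 1 of iron-sulfur assembly, and 4 and 0 of copper. Upper-quartile factors gave 5 higher in the hepcidin list and 1 lower in the iron regulatory list, beside 2276 higher and 1619 lower of 15135 genes tested. Without the count filter Hamp had -1.55, 0 iron regulatory genes were lower and 1 iron-sulfur gene was higher. In that fit 1828 genes were lower and 2074 higher of 27277 tested.

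Leaving out 1 library gave 2236 called genes of 15536 tested (without knockout replicate 1) to 4921 of 15741 (without control replicate 1). Genes called higher ran from 1119 to 2407 and those lower from 1104 to 2514. Without control replicate 1, 15.3% of all genes tested were higher and 16.0% lower, and the list counts given next are to be read beside such totals. The log2 fold changes ran from -1.79 to -1.02 for Hamp, 0.41 to 0.61 for Hfe, -0.46 to 0.12 for Tfrc, -0.73 to -0.28 for Slc40a1 and -0.47 to -0.23 for Aco1. Tfrc was 0.12 without control replicate 1. Of the 10 genes, 0 to 1 were higher and 4 to 7 lower. The ranges of higher and lower genes were 1 to 3 and 2 to 6 in the hepcidin list, 0 to 2 and 5 to 9 in iron uptake, 1 and 1 to 2 in the iron regulatory list, 1 and 1 to 4 in iron-sulfur assembly, and 1 and 1 to 5 in copper. The highest counts lower in each list came without control replicate 1. Hspa9 ran from -0.037 (without knockout replicate 1) to 0.045, with -0.00 without control replicate 2.

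With the replicate number as a block, 3468 of 15135 genes were called, 1713 of them higher. Hamp had -1.45 and lost its call (edgeR adjusted p = 0.0887), and 1 iron-sulfur gene was higher. The calls of Il6ra (0.0505), Sod1 (0.0835), Nfs1 (0.0748) and Ftl2-ps (0.0571) also ended. The deviations of same-numbered libraries correlated at 0.11, 0.05 and 0.09 across genes, which does not establish pairs, although each library correlated best with its own number. For the regions, a -log10 q of at least 5 left 1 of the 10 genes, Ftl1, in the knockout list. The counts of Hamp2 in the controls, 8 in all, limit the precision of its fold.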

Other observations

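Genes within 20 kb of the 10 genes were looked at after the values were seen. Beside Hamp, Usf2, which encodes a transcription factor and lies between Hamp and Lsr, fell by 0.50 on the log2 scale (SE 0.125, edgeR adjusted p = 0.0245), and Lsr had 0.31 (edgeR adjusted p = 0.0891). Beside Tfr2, which fell, the collagen-processing gene Pcolce rose from 6.92 to 103 CPM (log2 fold change 3.90, SE 0.276, edgeR adjusted p = 3.51e-04) and Mospd3 fell by 0.55 (edgeR adjusted p = 0.0348). Beside Aco1, Ddx58, which encodes the RNA sensor RIG-I, rose from 19.8 to 48.4 CPM (log2 fold change 1.29, edgeR adjusted p = 0.00737). Beside Hfe, the histone genes Hist1h4c and Hist1h2ac rose by 2.89 and 1.98 (edgeR adjusted p = 0.00212 and 0.0247) from 0.484 and 0.257 CPM in the controls.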
